A study of Homo sapiens with 18 samples.

Results

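The 46 genes described here act in G2 and mitosis, from the kinase switch that starts cell division to the proteins that separate chromosomes and divide the cell. They were chosen by name and not by a cut on a measured value, though with earlier results of these data known. Their probes are the non-control probes whose gene name in the scanner files is one of the 46, with cyclin-dependent kinase 1 written CDC2. They are 46 of the 21028 gene names with a kept probe and are represented by 61 of the 41000 probes, of which 60 are among the 28665 probes kept after the filter on dim spots. All 46 genes passed that filter through their brightest probe, the one with the highest mean signal over all arrays, and this probe stands for the gene below.

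A549 is an established line of human lung adenocarcinoma cells with features of alveolar epithelium. The cells were exposed for 2 h in serum-free medium to Ludox colloidal silica nanoparticles (NPs), either SM30 with a diameter of 9 nm or AS30 with a diameter of 18 nm, at the single concentration that the methods give for both. They then recovered in complete medium with serum for 3 h after either particle or for 22 h after AS30. SM30 at 22 h was not analysed here. Each of these 3 exposures had its own control group, which went through the same 2 h in serum-free medium and the same recovery without NPs. The 6 groups held 3 biological replicates each, lettered A, B and C, and RNA from each culture was hybridised to 1 one-colour Agilent array, which gives 18 arrays. The signal of a treated array was set over that of its control with the same letter, which gives 3 log2 ratios per exposure.

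Cells divide when cyclin B binds CDK1 and the CDC25 phosphatases remove the inhibitory phosphates that WEE1 and PKMYT1 place on it. Polo-like and Aurora kinases then build the spindle, the spindle checkpoint holds back the ubiquitin ligase APC/C until every chromosome is attached, and CDC20 activates that ligase so that securin and cyclin B are destroyed. Most of these genes are transcribed in G2 and mitosis and are kept silent in resting cells, and FOXM1 and the MuvB complexes that bind their promoters are known to control this timing, so their mRNA level is widely read as a sign of how many cells are cycling.

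On the 18 arrays, 51.9% to 72.4% of non-control spots were well above background, and the brightest probes of all 46 members were well above background on every array. Of the 828 member values, 2 were missing, which were ASPM on SM30-treated array A and CENPA on AS30-treated array B at 22 h. All 9 markers of A549 and epithelial cells that the arrays carry were well above background on all 18 arrays. Of 9 markers of other cell types, PTPRC, PECAM1 and COL3A1 were above it on none, while CD3E, CD68 and ACTA2 were above it on all 18. The arrays lay on 5 slides. The SM30 controls and SM30 array A were on 1 slide and SM30 arrays B and C on another. All AS30 controls at 3 h were on 1 slide and all AS30-treated arrays at 3 h on another, so that no slide held both. The 3 AS30-treated arrays at 22 h shared a slide with control C of that time.

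The mitosis genes were lower after every exposure. The median log2 change over the 46 members was -0.39 after SM30 at 3 h, -0.42 after AS30 at 3 h and -0.69 after AS30 at 22 h, where the medians of all probes tested were -0.05, 0.01 and -0.00. Members below 0 numbered 40 after SM30, 42 after AS30 at 3 h and 46 after AS30 at 22 h, and 37 were below 0 in all 3. Among all probes, 56.3%, 48.6% and 50.5% were below 0 in the same comparisons, and the share below 0 in all 3 was not counted. RNA came from whole cultures, so fewer cells in G2 and mitosis and less mRNA in each such cell cannot be told apart.

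Few single members passed the test across all probes. Members called lower, at a limma adjusted p under 0.05, numbered 2 after SM30, 0 after AS30 at 3 h and 3 after AS30 at 22 h, where 3.13%, 1.01% and 1.04% of all probes were called lower. Members called higher numbered 1, 0 and 0, against 4.35%, 1.5% and 2.54% of all probes, and 1, 1 and 0 were higher at an unadjusted p under 0.05. At an unadjusted p under 0.05, 14 members were lower after SM30, 19 after AS30 at 3 h and 34 after AS30 at 22 h, where the shares of all probes were 13.3%, 11.2% and 10.1%. A fit with no replicate block called 4 members lower after SM30, where it called 4% of all probes lower, and 10 at 22 h, where it called 1.58%.

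Groups that did not overlap were common among the members. All 3 treated arrays lay below all 3 controls for 29 of 45 members after SM30, where 23.8% of all probes did so. With AS30 at 3 h this held for 22 of 46 members, against 10.6% of all probes. After AS30 at 22 h it held for 20 of 45 members, against 11.1%. All 9 pairs of arrays had a member median below 0, from -1.22 to -0.09, while the medians of all probes in those pairs ran from -0.08 to 0.04. Of the 44 members with all 9 ratios measured, 17 were below 0 in every one of them, a count not made over all probes. These were the cyclins CCNB1 and CCNB2, the kinases PLK1 and AURKA, the checkpoint and anaphase genes BUB1, BUB1B, CDC20, PTTG1 and ESPL1, the motors and bundling factors KIF2C, KIF20A, KIF23 and PRC1, and NCAPH, SMC4, TOP2A and MKI67 of the chromosome group.

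**Figure D1:**
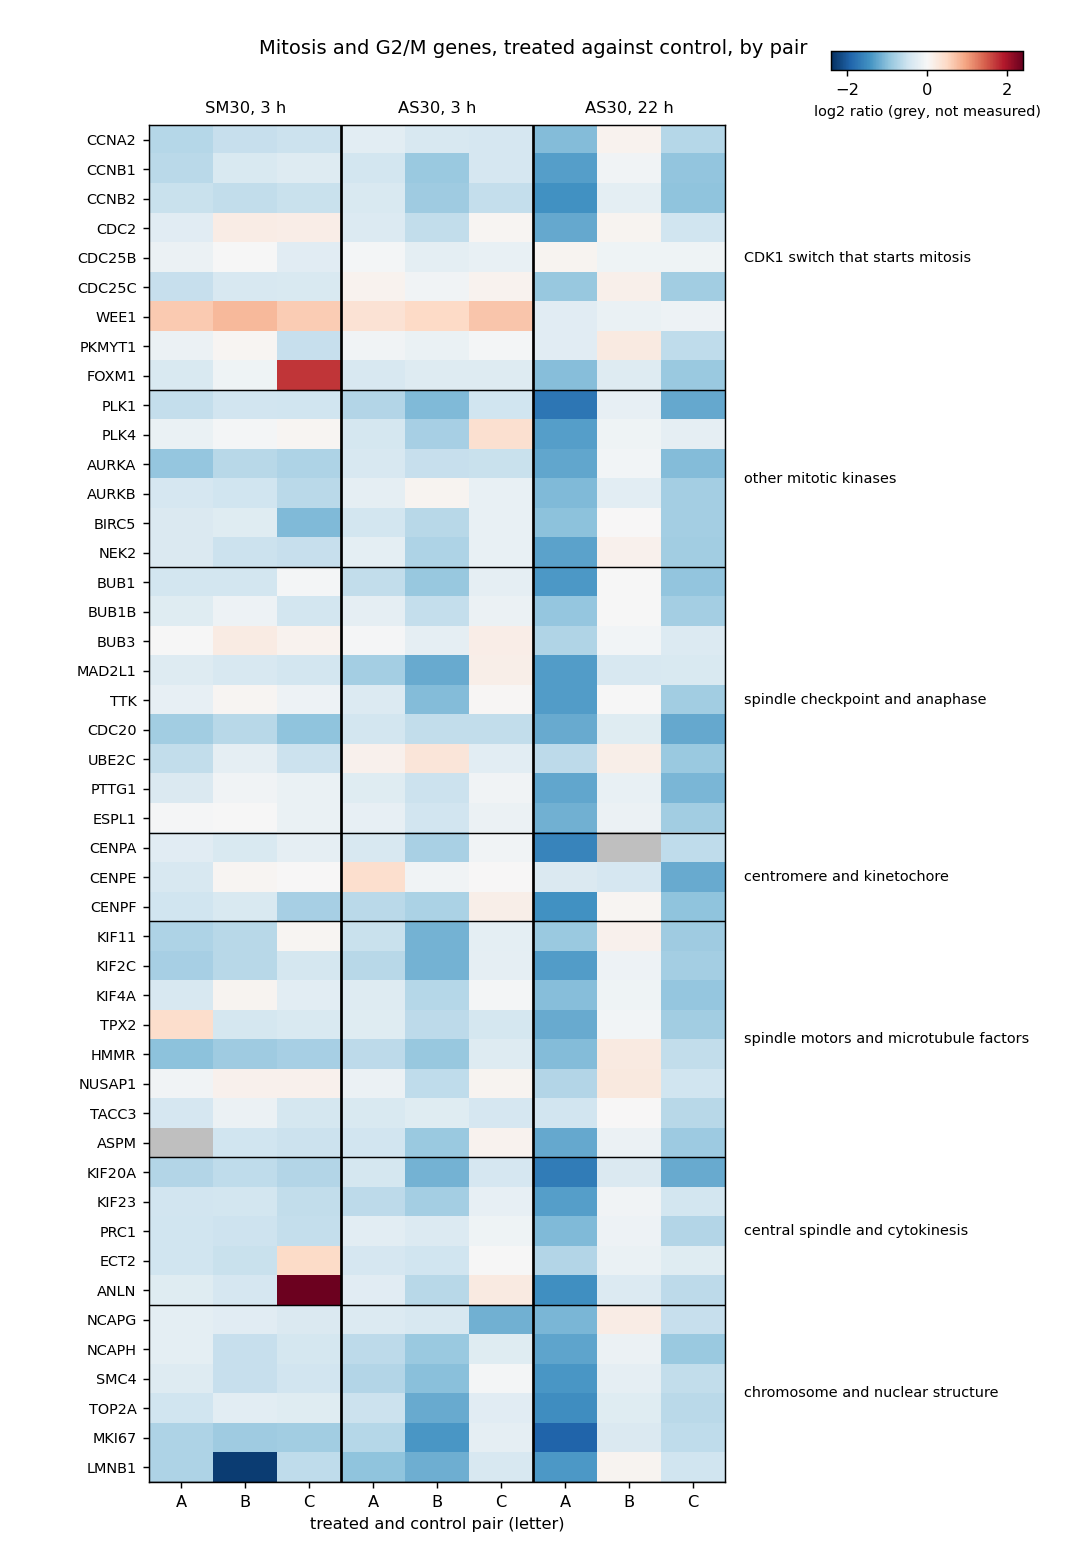
Log2 ratio of treated over control signal for each of the 46 members (vertical axis, ordered by role) in each of the 9 pairs of arrays (horizontal axis). Blue is lower and red higher in the treated array, and grey is not measured. Pair A of AS30 at 22 h is the darkest column, with a member median of -1.22, pair B of that exposure is close to white at -0.09, and WEE1 is red in all 6 pairs at 3 h.

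The pairs did not fall alike. After SM30 the member medians of pairs A, B and C were -0.39, -0.39 and -0.42. For AS30 at 3 h they were -0.38, -0.66 and -0.18. After AS30 at 22 h they were -1.22, -0.09 and -0.82, so pair B was near 0 and the other 2 pairs held the largest falls of the series. Members below 0 in these 3 pairs numbered 45 of 46, 31 of 45 and 46 of 46.

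Set against each gene's mean over the 18 arrays, the members stood at a median of 0.26 to 0.29 on the SM30 controls and -0.19 to -0.10 on the SM30-treated arrays, which did not overlap. The AS30 controls at 3 h stood at 0.00 to 0.29 and the treated arrays at -0.39 to -0.16. The AS30 controls at 22 h stood at 0.23 to 0.46. Treated arrays A and C at 22 h stood at -0.70 and -0.48, whereas treated array B stood at 0.20, just under the lowest of its controls. Array A of this group held the lowest signal of all 18 arrays for 27 of the 46 members.

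The share of bright spots, the slide and some markers of other cell types moved with these values. The share of spots well above background was 56.9% on treated array B at 22 h, against 64.5% on A and 67.0% on C, and was 51.9% to 58.4% on the controls of that time. For AS30 at 3 h it was 62.5% to 67.1% on treated arrays and 52.4% to 61.9% on controls, and with SM30 it was 69.0% to 72.4% and 65.5% to 69.9%. For the slide, several comparisons were possible. On the slide with all 3 SM30 controls, SM30 array A had a member median of -0.42, with 42 of 45 members below 0. On the slide with the AS30-treated arrays at 22 h, the members stood at -0.99, -0.06 and -0.82 for A, B and C relative to control C. With slide as a fixed block in a fit of all 18 arrays, the member medians were -0.43 after SM30, -0.30 after AS30 at 3 h and -0.59 after AS30 at 22 h. The SM30 and 22 h values of this fit rest on the same arrays as the comparisons within a slide and add no further check. For AS30 at 3 h the 2 slides are joined only through controls A and B of 22 h. The part of the share of bright spots in these differences was not tested.

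The summed signal of the 9 markers of other cell types was higher in every exposure, at 10.67 to 10.73 on the log2 scale after SM30 against 10.02 to 10.18 in its controls. After AS30 it was 10.97 to 11.19 against 10.18 to 10.59 at 3 h, and 11.08 to 11.99 against 10.48 to 10.85 at 22 h. Of the 4 markers that could be tested, CD68, a lysosomal protein of macrophages that other cells make too, was called higher at 22 h and none was called at 3 h, where 2 had an unadjusted p under 0.05 in limma after each particle. The CD68 ratios were 2.36, 0.84 and 1.80 for pairs A, B and C at 22 h, so the pair with the smallest fall of the mitosis genes had the smallest rise. At 22 h, 2 of these 4 markers were below 0, and their median was -0.06, so the sum, which CD68 leads, did not stand for the list. After SM30, 1 of the 4 was below 0, and after AS30 at 3 h 0 of the 4. The leukocyte marker PTPRC was above background on none of the 18 arrays, whereas the T-cell marker CD3E was above it on all 18. The summed A549 and epithelial markers overlapped between treated and control arrays in each exposure. KRT19, a keratin of epithelial cells, was called higher at 22 h, at 1.21 with an adjusted p of 0.023, where 2.54% of all probes were called higher. At that time 6 of the 9 epithelial markers were below 0, with a median of -0.09. In limma 3 of the 9 were lower and 1 was higher at an unadjusted p under 0.05. After AS30 at 3 h all 9 epithelial markers were below 0, with a median of -0.21, and limma called 0 of them, with 0 at an unadjusted p under 0.05. The part of either marker list in the result was not tested.

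**Figure D2:**
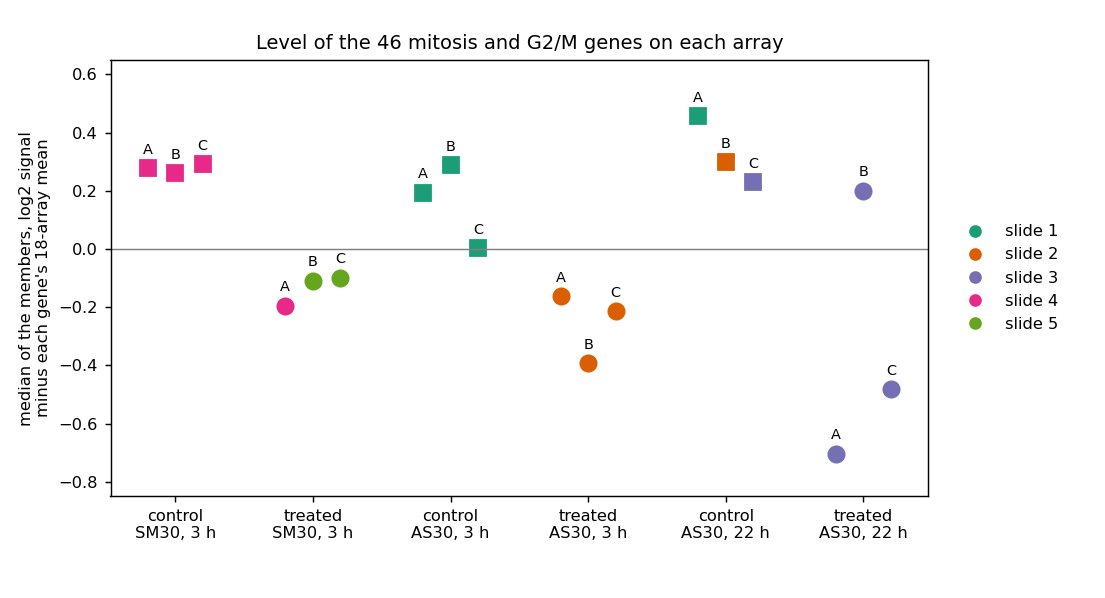
Median over the 46 members of the log2 signal minus each gene's mean over the 18 arrays (vertical axis), for each array in the 6 groups (horizontal axis). Squares are controls, circles are treated arrays, letters are replicates and colours are slides. All treated arrays lie below their controls, and treated array B of AS30 at 22 h, at 0.20, lies closest to them.

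The promoters of these genes carry 2 short elements that are known for mitotic transcription, and they are shown because the members moved together. The cell cycle genes homology region (CHR), with the letters TTTGAA or TTTAAA, is bound by MuvB complexes, and the CCAAT box, with the letters CCAAT, is bound by NF-Y. RefSeq promoters on GRCh38.p14, from 250 bases before to 50 after the start of the gene, were given for 37 of the 46 members. Those without an entry were AURKA, BIRC5, BUB3, FOXM1, PKMYT1, TPX2, TTK, UBE2C and WEE1. On either strand, a CHR was found in 30 of the 37 promoters (81.1%) and in 19.5% of all 15843 promoters. A CCAAT box was found in 26 members (70.3%) and in 36.4% of all promoters, and both together in 22 members (59.5%) and in 7.95% of all promoters. The CCAAT boxes of the members began at a median of -73.0 from the start and the CHR matches at -35.0. A match of these letters is a description of the window and not a binding site.

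The 4 promoters below belong to the members with both elements that were called in the most comparisons, which was 2 for CDC20 and 1 for the others. The call of MAD2L1 was between the untreated SM30 and AS30 controls at 3 h, and it was not called in any exposure. Ties were settled by the larger change, which left out ESPL1. Matches on either strand are in capitals, and on the opposite strand they read TTCAAA for the CHR and ATTGG for the CCAAT box. CDC20 lies at chr1:43358731-43359030 on the plus strand, KIF20A at chr5:138178862-138179161 on the plus strand, MAD2L1 at chr4:120066799-120067098 on the minus strand and HMMR at chr5:163460382-163460681 on the plus strand.
CDC20: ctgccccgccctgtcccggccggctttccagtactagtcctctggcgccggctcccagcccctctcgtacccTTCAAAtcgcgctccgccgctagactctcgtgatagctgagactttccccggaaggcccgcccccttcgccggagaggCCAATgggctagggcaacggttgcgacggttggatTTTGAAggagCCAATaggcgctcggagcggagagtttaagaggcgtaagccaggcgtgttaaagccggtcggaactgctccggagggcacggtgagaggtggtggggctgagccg
KIF20A: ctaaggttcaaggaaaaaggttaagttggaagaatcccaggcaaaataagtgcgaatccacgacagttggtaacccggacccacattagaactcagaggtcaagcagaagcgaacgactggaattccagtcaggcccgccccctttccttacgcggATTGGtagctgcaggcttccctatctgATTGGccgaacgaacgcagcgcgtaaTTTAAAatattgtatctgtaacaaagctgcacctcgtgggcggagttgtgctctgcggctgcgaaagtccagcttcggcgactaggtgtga
MAD2L1: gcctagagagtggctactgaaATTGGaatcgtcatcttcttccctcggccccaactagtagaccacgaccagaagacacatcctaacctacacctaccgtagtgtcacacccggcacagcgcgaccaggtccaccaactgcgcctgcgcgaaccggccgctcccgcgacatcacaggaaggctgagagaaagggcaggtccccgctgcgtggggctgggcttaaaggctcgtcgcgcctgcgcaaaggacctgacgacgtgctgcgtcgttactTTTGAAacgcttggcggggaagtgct
HMMR: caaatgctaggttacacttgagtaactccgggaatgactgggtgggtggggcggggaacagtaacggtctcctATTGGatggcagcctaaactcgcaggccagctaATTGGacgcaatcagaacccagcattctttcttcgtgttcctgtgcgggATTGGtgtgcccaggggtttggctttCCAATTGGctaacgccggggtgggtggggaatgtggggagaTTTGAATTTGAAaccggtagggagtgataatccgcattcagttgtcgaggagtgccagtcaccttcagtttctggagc

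In CDC20 the CHR on the plus strand began at -65 and the CCAAT boxes at -100 and -55, and in KIF20A the CHR began at -41 with CCAAT boxes at -94 and -67. HMMR held adjacent CHR matches at -28 and -22 and 5 CCAAT matches, of which those at -69 and -66 overlap on opposite strands, and in MAD2L1 the CHR lay after the start, at 24. Members with both elements had median log2 changes of -0.45 after SM30, -0.54 after AS30 at 3 h and -0.76 after AS30 at 22 h. The 15 matched members without both had medians of -0.32, -0.35 and -0.60. Both kinds of member were therefore lower after each exposure, and the difference between them was not tested. For the CHR alone the order was not the same each time. After SM30 the 30 members with it had a median of -0.42 and the 7 without it -0.43. After AS30 these medians were -0.54 and -0.35 at 3 h and -0.72 and -0.55 at 22 h.

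Among the 5 members called in an exposure, the probe of WEE1 lies at chr11:9564856-9564915, that of CDC20 at chr1:43599124-43599183 and that of HMMR at chr5:162851415-162851474, on build hg18 as the scanner files give it. On the same build, AURKB is read at chr17:8051380-8051642 and KIF20A at chr5:137549980-137550703, spans that are longer than a probe.

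The switch that starts mitosis comprised 9 members. Of these, 6 were below 0 after SM30, 7 after AS30 at 3 h and 9 after AS30 at 22 h, with medians of -0.22, -0.29 and -0.54. WEE1, the kinase that blocks CDK1, was above 0 in all 6 pairs at 3 h. Its normalized log2 signal was 8.07, 8.06 and 8.21 in the SM30 controls and 8.70, 8.84 and 8.82 in the treated cells, so every treated array lay above every control. The rise was 1.60-fold, or 0.67 ± 0.11 (SE, n = 3) on the log2 scale, with an adjusted p of 0.010 by limma. The SE here and below is that of limma, which pools the spread of all pairs or groups in the fit. The SD of the 3 SM30 ratios of WEE1 alone was 0.10. With normexp background correction the change was 0.32, with an adjusted p of 0.0085. After AS30 at 3 h the controls were at 8.15, 8.24 and 7.90 and the treated arrays at 8.48, 8.72 and 8.56. These groups did not overlap, and the change of 0.49 ± 0.11 had an adjusted p of 0.053. At 22 h the controls were at 8.27, 8.27 and 8.41 and the treated arrays at 7.99, 8.12 and 8.28. Here the groups overlapped and all 3 ratios were below 0, at -0.27, -0.16 and -0.13, with a change of -0.19 and an adjusted p of 0.34. WEE1 was the only member above 0 in every pair of either 3 h exposure.

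The cyclins of this switch were lower in each exposure without passing the test. CCNB1 changed by -0.44, -0.57 and -0.78 on the log2 scale after SM30, AS30 at 3 h and AS30 at 22 h, and its adjusted p values were 0.25, 0.17 and 0.088. CCNB2 changed by -0.55, -0.60 and -0.88, with adjusted p values of 0.14, 0.13 and 0.056. CCNA2, the cyclin of S phase and G2, changed by -0.58, -0.35 and -0.55. For CCNB2 the treated and control arrays did not overlap in any of the 3 exposures. CDC2 itself changed little at 3 h, at 0.03 after SM30 and -0.29 after AS30, and by -0.54 at 22 h. The phosphatase CDC25B was the member nearest to 0 at 22 h, at -0.04, and CDC25C, which also activates CDK1, changed by -0.43, 0.03 and -0.54. PKMYT1, the membrane-bound partner of WEE1, changed by -0.22, -0.10 and -0.22.

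FOXM1, the transcription factor of the G2 programme, could not be read after SM30. Its SM30 controls were at 11.35, 11.43 and 9.35, and its treated arrays at 10.99, 11.32 and 11.07. Control C alone was low, which gave pair C a ratio of 1.72 while pairs A and B were at -0.36 and -0.11. The same control array was low for ANLN, an actin-binding protein of the cleavage furrow, at 8.72 against 11.27 and 11.34. Its pair C ratio was 2.36, and its other ratios were -0.29 and -0.40. After AS30 the changes of FOXM1 were -0.33 at 3 h and -0.75 at 22 h, with groups that did not overlap in either case and adjusted p values of 0.58 and 0.24.

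All 6 members of the group of other mitotic kinases were below 0 in each exposure, and their medians were -0.51, -0.41 and -0.69. AURKB, the catalytic subunit of the chromosomal passenger complex, was called at 22 h. Its signal was 10.70, 11.00 and 10.87 in the controls and 9.64, 10.74 and 10.05 in the treated cells. Array B just overlapped the lowest control. The change was -0.71 ± 0.16 (SE, n = 3), a 1.64-fold fall with an adjusted p of 0.048. The SD of its 22 h ratios alone was 0.41. The call was kept in 3 of 18 alternatives, over which the adjusted p ran from 0.019 to 0.60. At 3 h AURKB changed by -0.51 after SM30, with an adjusted p of 0.087, and by -0.11 after AS30.

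PLK1, which activates CDC25 and matures the centrosome, had one of the largest changes at 22 h without being called. Its controls were at 14.42, 14.22 and 14.17 and its treated arrays at 12.68, 14.01 and 12.94, so the groups did not overlap and array B lay close to the controls. The change was -1.06 with an adjusted p of 0.058, and at 3 h it was -0.50 after SM30 and -0.75 after AS30. AURKA, which TPX2 activates at the spindle poles, changed by -0.78, -0.49 and -0.79, and its adjusted p was 0.058 after SM30 and 0.073 at 22 h. The treated and control arrays of AURKA did not overlap in any exposure. BIRC5, the survivin subunit of the passenger complex, changed by -0.57, -0.43 and -0.60. Its SM30 ratios were -0.34, -0.29 and -1.07, where control C stood at 15.44 against 14.50 and 14.69 in A and B. NEK2, which splits centrosomes, changed by -0.47, -0.39 and -0.67. PLK4, which starts centriole duplication, changed by -0.05 after SM30 and by -0.27 and -0.55 after AS30.

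**Figure D3:**
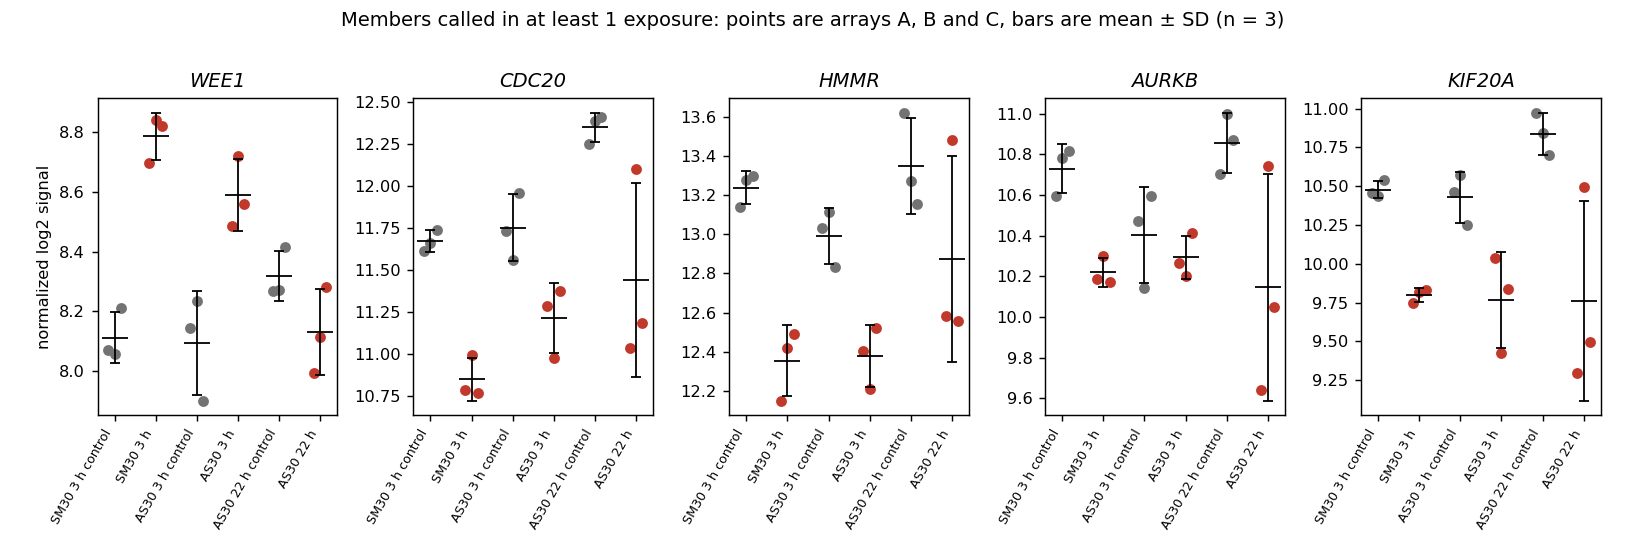
Normalized log2 signal (vertical axes, which do not start at 0) of the 5 members called in at least 1 exposure, for arrays A, B and C of the 6 groups (horizontal axes). Grey points are controls, red points are treated arrays and black bars are the mean with its SD (n = 3). The CDC20 treated arrays lie below their controls in all 3 exposures, and at 22 h array B is the highest treated point for CDC20, HMMR, AURKB and KIF20A.

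The spindle checkpoint and anaphase group held the member called most often. CDC20, the activator of APC/C and a target of the checkpoint, stood at 11.61, 11.66 and 11.74 in the SM30 controls and at 10.79, 11.00 and 10.77 after SM30. That is a 1.77-fold fall, -0.82 ± 0.18 (SE, n = 3) on the log2 scale, with an adjusted p of 0.034. At 22 h the AS30 controls were at 12.25, 12.39 and 12.41 and the treated arrays at 11.04, 12.10 and 11.19. The fall there was 1.88-fold, -0.91 ± 0.18 (SE, n = 3), with an adjusted p of 0.040. The SD of the CDC20 ratios alone was 0.54 at 22 h and 0.15 after SM30. In AS30 at 3 h the controls were at 11.73, 11.56 and 11.96 and the treated arrays at 11.29, 10.98 and 11.38. The groups of CDC20 were apart in all 3 exposures, although the change of -0.54 in the last of these had an adjusted p of 0.13.

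The other 8 members of that group were not called. PTTG1, the securin that APC/C destroys, changed by -0.19, -0.30 and -0.84, with an adjusted p of 0.056 at 22 h. ESPL1, the separase that securin holds back, changed by -0.07, -0.26 and -0.71. The checkpoint kinase BUB1 changed by -0.31, -0.58 and -0.78, its partner BUB1B by -0.29, -0.30 and -0.58, and TTK, the kinase that recruits them, by -0.09, -0.45 and -0.73. MAD2L1, which binds and inhibits CDC20, changed by -0.38, -0.63 and -0.70. BUB3, the adaptor that is also used outside mitosis, was the flattest of the group, at 0.09, -0.03 and -0.37. UBE2C, the ubiquitin-conjugating enzyme of APC/C, changed by -0.44, 0.05 and -0.46.

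The 3 centromere genes had medians of -0.28, -0.41 and -0.79 after SM30, AS30 at 3 h and AS30 at 22 h. CENPA, the histone H3 variant of centromeres, stood at 11.03, 10.44 and 10.49 in the 22 h controls and at 9.43 and 9.88 in treated arrays A and C, while B was not measured. Its change of -1.10, the largest of all members at 22 h, therefore rests on 2 pairs and had an adjusted p of 0.058. CENPF, a large kinetochore protein of G2, changed by -0.55, -0.43 and -0.79, and the motor CENPE by -0.10, 0.12 and -0.65.

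Among the 8 spindle motors and microtubule factors, 7 were below 0 after SM30 and all 8 after AS30 at either time, with medians of -0.39, -0.43 and -0.61. HMMR, a microtubule-associated protein of the spindle poles, was called after SM30. The controls were at 13.14, 13.28 and 13.30 and the treated arrays at 12.15, 12.42 and 12.49. All treated arrays lay well below all controls, and the change was -0.89 ± 0.22 (SE, n = 3), a 1.85-fold fall with an adjusted p of 0.046. The SD of its SM30 ratios alone was 0.10. After AS30 at 3 h HMMR changed by -0.61 with groups that did not overlap, and at 22 h by -0.48 with groups that did, where treated array B stood at 13.48, within its controls.

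The other members of the spindle group were not called by their brightest probe. KIF2C, a microtubule-depolymerising kinesin, changed by -0.63, -0.68 and -0.76 and had groups apart in every exposure. KIF11, the motor that pushes the spindle poles apart, changed by -0.45, -0.63 and -0.55, and a dimmer second probe of KIF11 was called lower at 22 h, at -0.98 with an adjusted p of 0.0496. TPX2 changed by -0.12, -0.44 and -0.71. Its SM30 value contains a control array A at 11.25, below 12.18 and 12.16 in controls B and C, and pairs B and C alone were at -0.42 and -0.37. KIF4A, TACC3 and ASPM were below 0 in all 3 exposures, at -0.68, -0.37 and -0.75 at 22 h, and NUSAP1 was the flattest of the group, at 0.04, -0.23 and -0.32.

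The central spindle and cytokinesis group had 5 members with medians of -0.49, -0.30 and -0.63. KIF20A, the kinesin that carries the passenger complex to the midzone, was called at 22 h, with controls at 10.97, 10.84 and 10.70 and treated arrays at 9.29, 10.49 and 9.50. Every treated array lay below every control. The change was -1.08 ± 0.24 (SE, n = 3), a 2.11-fold fall with an adjusted p of 0.0499. The SD of its 22 h ratios alone was 0.68. KIF20A was also lower at 3 h, by -0.68 after SM30 and by -0.66 after AS30, with groups apart and adjusted p values of 0.13 and 0.15. PRC1, which bundles midzone microtubules, changed by -0.52, -0.23 and -0.63, the kinesin KIF23 by -0.49, -0.55 and -0.62, and ECT2, the exchange factor that activates RhoA at the furrow, by -0.19, -0.30 and -0.38. The SM30 ratios of ECT2 were -0.48, -0.54 and 0.47, where control C stood at 13.97 against 14.80 and 14.93 in A and B.

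All 6 members of the chromosome and nuclear structure group were below 0 in every exposure, with medians of -0.42, -0.64 and -0.75. TOP2A, the topoisomerase that untangles sister chromatids, changed by -0.34, -0.66 and -0.81. MKI67, the coating protein of mitotic chromosomes used in pathology to count cycling cells, changed by -0.81, -0.76 and -0.96. Its ratios differed widely between pairs at 22 h, at -1.92, -0.34 and -0.61, and its adjusted p values were 0.14, 0.17 and 0.12. The condensin subunits NCAPG, NCAPH and SMC4 changed by -0.28, -0.40 and -0.44 after SM30 and by -0.49, -0.76 and -0.73 after AS30 at 22 h.

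LMNB1, a lamin of the nuclear envelope, had the lowest value of all members after SM30, and 1 array carried much of it. Its SM30 controls were at 12.26, 12.39 and 12.29 and its treated arrays at 11.52, 10.11 and 11.69. All treated arrays were below all controls, and array B gave a ratio of -2.27 where A and C gave -0.74 and -0.60. The change of -1.20 had an adjusted p of 0.081. After AS30 LMNB1 changed by -0.84 at 3 h and by -0.60 at 22 h.

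**Figure D4:**
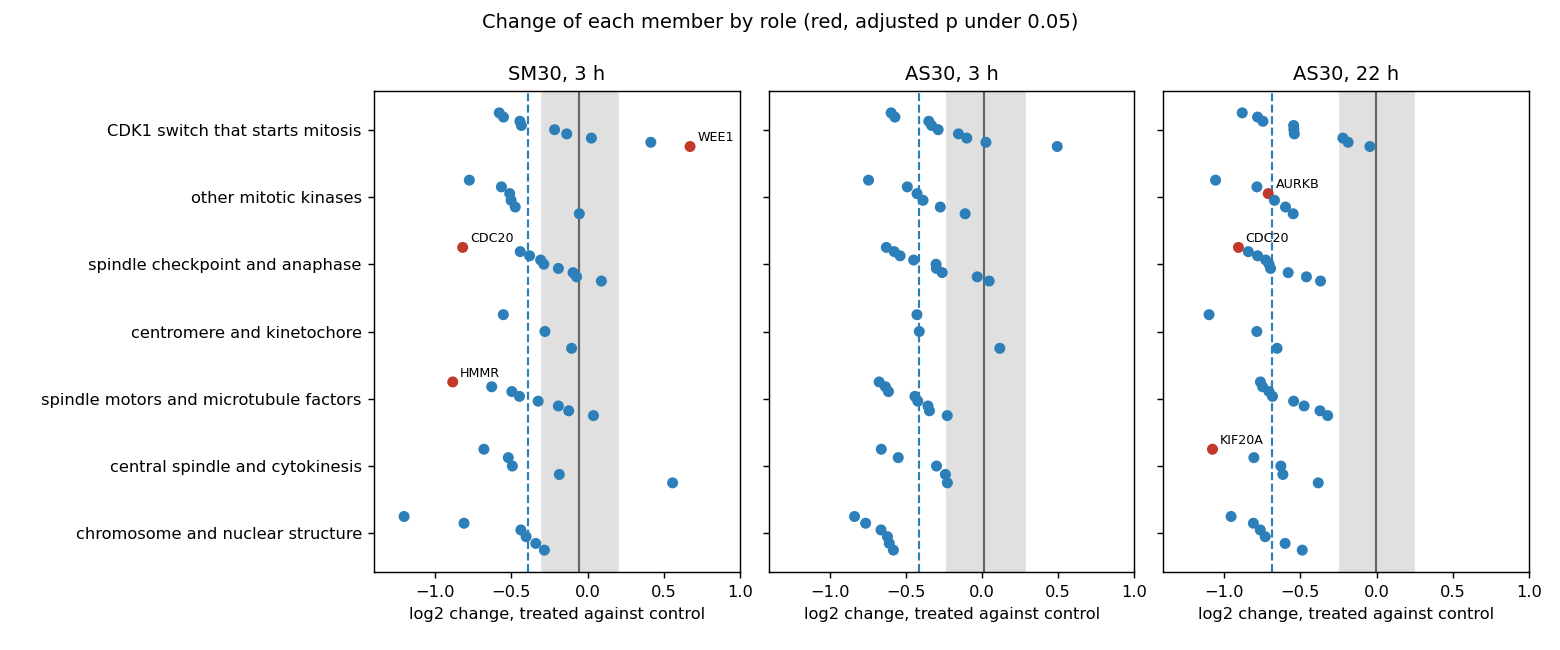
Log2 change of treated against control (horizontal axes) for each member, in rows by role, after the 3 exposures. Red points were called at an adjusted p under 0.05, the dashed blue line is the member median, the grey line is the median of all probes and the grey band spans the lower to the upper quartile of all probes. The member medians of -0.39, -0.42 and -0.69 lie left of the band in all 3 panels.

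Members with more than 1 probe gave a further reading. The 14 other kept probes had the same sign as the brightest probe of their gene in 11 cases after SM30, 13 after AS30 at 3 h and 14 after AS30 at 22 h. The exceptions after SM30 were ASPM at 0.04, CCNB2 at 0.78 with an adjusted p of 0.27, and SMC4 at 0.08, and after AS30 at 3 h it was a BUB3 probe at 0.08.

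Without SM30 pair A, B or C, in turn, limma called 0 members in either direction after SM30, in fits with 1 pair fewer. The changes themselves moved little in these fits, from -0.90 to -0.74 for CDC20, from -0.93 to -0.83 for HMMR and from 0.62 to 0.71 for WEE1. All probes called lower fell from 3.13% to between 0.23% and 0.667%. Since the fit pools the spread of all 9 pairs, leaving out AS30 pair B at 22 h gave 7 members called lower after SM30 in place of 2, while the share of all probes called lower was 3.26%.

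For AS30 at 22 h, 19 members were called lower without pair B, at a median of -0.95, where 1.2% of all probes were called lower. Without pair A or without pair C 0 members were called, where 0.00358% and 0.331% of all probes were called lower. Leaving out any pair of SM30 also left 0 called, where 0.146% to 0.277% of all probes were called lower. Leaving out pair A of AS30 at 3 h left 0, where 0.472% of all probes were called lower. Leaving out AS30 pair B or C at 3 h left 1, where the shares were 0.938% and 1.6%.

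In the AS30 exposure at 3 h, no member was called and 20 had an unadjusted p under 0.05 in limma, of which 19 were lower and the other was WEE1. A fit with slide as a random block called 12 members lower and 1 higher, where it called 6.89% of all probes lower and 8.12% higher. Without AS30 pair C at 3 h, 1 member was called lower, where 4.96% of all probes were called lower. Without pair B at 22 h the count was also 1, where 1.03% of all probes were called lower.

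The difference between the particles at 3 h was tested directly. No member differed by the adjusted test, where 0.014% of all probes did, and 0 members had an unadjusted p under 0.05 in limma. The lowest adjusted p was 0.44. The median over the members of the SM30 change minus the AS30 change was 0.08, single members ranged from -0.49 to 0.80, and the median SE of such a difference was 0.31. With slide as a fixed block this median was -0.17, so the order of the particles was not settled by these arrays.

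The difference between the times after AS30 was also tested. The 22 h change was below the 3 h change for 41 of 46 members, with a median difference of -0.28, against 0.01 over all probes. Without pair A of AS30 at 22 h the median difference was 0.02, so its sign turned on that pair. No member was called, where 0.0285% of all probes were, and 3 had an unadjusted p under 0.05 in limma. These were WEE1, CENPE and AURKB, with differences of -0.68 ± 0.15, -0.77 ± 0.27 and -0.60 ± 0.22 (SE) and adjusted p values of 0.12, 0.22 and 0.24. Over the 3 exposures, the lowest of the 3 changes was that of AS30 at 22 h for 40 members. That count was not made over all probes or without pair A.

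The untreated cultures were compared between the times and between the sets. From 3 h to 22 h in the AS30 controls, 42 of 46 members had a change above 0, with a median log2 change of 0.18 where all probes had 0.02. None was called, against 1.3% of all probes, and 5 had an unadjusted p under 0.05 in limma. TACC3, a spindle microtubule factor, had the lowest adjusted p at 0.091, with a change of 0.62. CDC20 changed by 0.60 and AURKA by 0.50. The 22 h controls, against which the treated arrays of that time were read, thus stood higher for most members than the 3 h controls.

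The controls of the SM30 set and of the AS30 set, both at 3 h, differed more. In that comparison 5 of 46 members were called, against 26.8% of all probes. MAD2L1 was higher in the SM30 controls, at 13.03, 13.08 and 13.22 against 12.34, 12.56 and 11.60. The change was 0.94 ± 0.24 (SE, n = 3), or 1.92-fold, with an adjusted p of 0.011. Those lower in the SM30 controls were CDC25B at -0.77, FOXM1 at -1.13, BUB1B at -0.52 and ESPL1 at -0.48. CDC25B stood at 12.42, 12.54 and 12.53 against 13.27, 13.21 and 13.32, and its adjusted p was 5.1e-04.

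For the last 3 genes of that comparison the groups were also apart, with the SM30 controls lower. This held for 9 of 46 members, and for 4680 of the 24797 probes measured on all these arrays. FOXM1 stood at 11.35, 11.43 and 9.35 against 12.02, 11.64 and 11.84, with an SE of 0.39 and an adjusted p of 0.045. Without SM30 control C the FOXM1 difference was -0.45 with an adjusted p of 0.093, and the call was lost in 7 of 14 alternatives. BUB1B stood at 10.34, 10.41 and 10.52 against 11.07, 10.95 and 10.82, with an SE of 0.16 and an adjusted p of 0.031. ESPL1 stood at 11.23, 11.17 and 11.29 against 11.87, 11.69 and 11.58, with an SE of 0.17 and an adjusted p of 0.049, a call that was lost in 11 of 14 alternatives. By their median the members were close between the sets, at 0.16 where all probes had 0.07, but single members ranged from -1.13 to 0.94. In limma 12 of 46 had an unadjusted p under 0.05, of which 6 were lower, where 16.3% of all probes were lower at that p. The sets share no slide, so slide and culture set cannot be told apart here.

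Other genes of the same machinery were read from lists. For these lists, the shares of all probes called lower were 3.13% after SM30, 1.01% after AS30 at 3 h and 1.04% after AS30 at 22 h. The shares called higher were 4.35%, 1.5% and 2.54%. Of 17 further spindle and cytokinesis genes, 15, 16 and 17 were below 0 after SM30, AS30 at 3 h and AS30 at 22 h, with medians of -0.41, -0.48 and -0.67. After SM30, 0 were called by limma and 5 were lower at an unadjusted p under 0.05. KIF14, a midbody kinesin, and DEPDC1 were called lower after AS30 at 3 h, at -1.03 and -0.70, and DEPDC1 at 22 h at -0.69. Of 19 further kinetochore genes, 16, 17 and 18 were below 0, with medians of -0.22, -0.25 and -0.52, and CENPK was called lower at 22 h at -0.80. Of 11 further chromosome genes, 9, 8 and 11 were below 0, with medians of -0.13, -0.26 and -0.42, and the condensin subunit NCAPD2 was called lower at 22 h at -0.64.

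The APC/C itself moved less. Its 14 subunits and regulators had medians of -0.11, -0.24 and -0.13, and limma called 0 in each of the 3 exposures, with 3 lower and 0 higher at an unadjusted p under 0.05 each time. The 11 measured genes of the MuvB and DREAM complexes, which switch the members on and off, had medians of -0.20, -0.22 and -0.21 (10 genes at 22 h). After SM30 the MuvB subunit LIN37 was called higher at 0.50 and the repressor-type E2F5 lower at -0.66.

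Genes that hold the cycle back moved both ways. Of 14 measured, 4 were called higher and 1 lower after SM30, 4 and 1 after AS30 at 3 h, and 1 and 0 at 22 h. Of all probes, 4.35%, 1.5% and 2.54% were called higher in these exposures and 3.13%, 1.01% and 1.04% lower. The medians of the 14 were 0.04, -0.03 and -0.03. CCNG2, a cyclin of arrested cells, changed most, at 2.92, 2.34 and 1.54. SFN, the 14-3-3 sigma protein that keeps CDK1 out of the nucleus, rose by 1.37 after SM30 and by 0.79 after AS30 at 3 h. CDKN1A, the p21 inhibitor of cyclin-dependent kinases, rose by 1.35 after SM30, and the stress kinase PLK3 rose by 0.96 after AS30 at 3 h. These 4 genes were each called higher after both particles at 3 h. The untreated SM30 controls stood below the AS30 controls at 3 h for SFN and CDKN1A, at -0.85 and -0.90. The single genes called lower, named after their values were seen, were PLK2 at -0.89 after SM30 and GADD45A at -0.68 after AS30 at 3 h.

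The genes of the G1/S transition gave another order of the exposures. All 27 were below 0 after SM30, 26 after AS30 at 3 h and 24 after AS30 at 22 h, with medians of -0.38, -0.41 and -0.23. Called lower were 5, 5 and 1 of them, where 3.13%, 1.01% and 1.04% of all probes were called lower. After SM30 these were led by CDC25A, which fell 2.01-fold, CCND3 at -0.83 and CDC6 at -0.74, and after AS30 at 3 h by PRIM1 at -0.83, CCND3 at -0.81 and CDC6 at -0.68. At 22 h the gene called was CCND3, at -0.75. These list values are descriptions, and no difference between lists was tested.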

How the data were processed

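Per the labels, 18 arrays in 6 groups of 3 biological replicates were read. The authors deposited 1 scanner file per array from Agilent Feature Extraction, with background-corrected spot intensities on a linear scale and spot flags. The authors also deposited a table of quantile-normalized linear intensities of the same arrays, used as an alternative. Here the log2 processed signal was quantile normalized over 18 arrays, spots not positive and significant were set to missing, outlier spots were dropped, replicate spots were averaged, and probes with over 33% missing were removed.

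Ratios of treated over control of the same letter were fitted as 3 classes (6 residual degrees of freedom) with limma 3.58.1 in R 4.3.3, and p-values were adjusted by Benjamini-Hochberg over all probes. Controls were compared in a fit of 18 arrays as 6 groups. The steps were tested on simulated data. A member called in a comparison is given array by array there, with up to 12 a comparison, and lists are given by counts with up to 3 called genes. The members and lists were chosen with earlier results of these data known. Array number limits the precision. Alternatives covered scaling, background correction, filters, the deposited table, pairing, slide, probe choice and single pairs left out. Of the markers of other cell types, 1 is not reported here.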

Additional observations from a re-analysis of the deposited data

Results flagged for a closer look

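WEE1 had ratios above 0 in every pair at 3 h and below 0 in every pair at 22 h after AS30, which is why it is listed here. Its 3 ratios at 3 h were 0.34, 0.48 and 0.66, and its 3 ratios at 22 h were -0.27, -0.16 and -0.13. The difference of the changes was -0.68 on the log2 scale, and the limma test of that difference gave an adjusted p of 0.12, so it did not pass. The untreated AS30 controls of WEE1 stood at 8.15, 8.24 and 7.90 at 3 h and at 8.27, 8.27 and 8.41 at 22 h. Whether slide has a part in the difference was not tested for this gene alone.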

How the results depend on the processing

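The member medians stayed below 0 in all 3 exposures under all 18 alternatives to each. They ran from -0.43 to -0.33 after SM30, from -0.49 to -0.29 after AS30 at 3 h and from -0.95 to -0.42 after AS30 at 22 h. Not all alternatives could move a median. Leaving out a pair of another exposure, or keeping dim spots, leaves the member ratios of an exposure unchanged. After SM30, where the 3 pairs differed least, the median was -0.37 with scaling to the 75th percentile, -0.43 with no replicate block and slide as a fixed block, and -0.33 with normexp background. Leaving out single pairs of SM30 gave -0.40 to -0.35. The median difference between particles reversed from 0.08 to -0.17 with slide as a fixed block and was -0.06 without AS30 pair B at 3 h. The median difference between times, -0.28, was 0.02 without AS30 pair A at 22 h. Counts of called members moved far more.

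Members called lower at 22 h, 3 as reported, numbered 1 with scaling to the 75th percentile and 0 with dim spots kept. They numbered 5 with normexp background and 6 over probes on all 18 arrays. All probes called lower in these fits were 0.685%, 0.188%, 1.01% and 1.29%. Members so called numbered 10 with no replicate block, 0 with slide as a fixed block and 16 with slide as a random block. All probes called lower there were 1.58%, 0.00868% and 2.6%. With single pairs left out the members numbered 0 to 19, where 0.00358% to 1.6% of all probes were called lower. Members called lower after SM30, 2 as reported, numbered 0 with dim spots kept, 1 with normexp background and 4 with no replicate block. With a fixed and a random block for slide they numbered 0 and 4. All probes called lower in these fits were 1.19%, 3.44%, 4%, 0.647% and 6.24%. With single pairs left out the members numbered 0 to 7, where 0.23% to 4.19% of all probes were called lower. The 1 called higher, WEE1, was 0 with slide as a fixed block, where 0.756% of all probes were called higher. With single pairs left out it was 0 to 1, where that share was 0.687% to 5.3%. After AS30 at 3 h, 1 was called higher with no replicate block, with slide as a random block, with normexp background and over probes on all 18 arrays. All probes called higher there were 2.4%, 8.12%, 1.27% and 1.9%. Called lower were 12 members with slide as a random block, against 6.89% of all probes. With single pairs left out 0 to 1 were called lower, against 0.123% to 4.96% of all probes. With slide as a random block, 1 member was called between the times, where 0.751% of all probes were called higher and 0.443% lower. In the AS30 controls between times, 1 was called with normexp background, where 0.454% of all probes were called higher and 0.571% lower. In the controls of the 2 sets, 5 as reported, the count was 9 by any probe of a gene. It was 3 with dim spots kept, 8 with the letter as replicate block and 10 with slide as a random block. All probes called higher there were 10.7%, 19.2% and 22.3%, and all called lower were 7.18%, 13.2% and 16.2%. With single arrays left out the count was 2 to 7, where 10.6% to 15.7% of all probes were called higher and 7.76% to 11.2% lower. That comparison has no fit with slide as a fixed block, since the sets share no slide.

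Of the single genes, WEE1 after SM30 was called in 14 of 18 alternatives, CDC20 in 11, HMMR in 9, and CDC20, KIF20A and AURKB at 22 h in 9, 6 and 3. None changed sign. Whether the letters pair cultures was not settled by the check made here. The deviations of same-lettered arrays correlated from -0.09 to 0.48 over probes, above 0.1 in 4 of 9 pairs. The ratios of the 3 exposures rest on that pairing, and the fit with no replicate block does not use it. Slide-blocked fits use complete probes and leave out ASPM and CENPA. The arrays allow 3 against 3 in each comparison. All members were well above background, and with normexp background WEE1 after SM30 changed by 0.32 in place of 0.67, and KIF20A and AURKB at 22 h by -0.80 and -0.51 in place of -1.08 and -0.71.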
